A study of Arabidopsis thaliana with 5 samples.

Results

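In Arabidopsis thaliana roots, 69 nuclear genes read at least 4-fold higher at 7 d than at 4 d in both low and high magnesium (Mg). With 1 FPKM added, they differed by less than 2-fold between Mg levels on either day, and from the control at 4 d. They are 0.44% of the 15684 nuclear genes with 5 FPKM or more in at least 1 of the 7-d libraries. FPKM counts fragments per kilobase of transcript, normalized to library size. Ratios are log2 ratios of FPKM with a pseudocount of 1 FPKM, so a 4-fold difference is a log2 ratio of 2, and the ratios of low genes are understated. The label of the set, genes 4-fold higher at 7 d at any Mg, fits what the rule selects. The members were chosen by the day ratios and Mg ratios themselves, so these are given as a description and support nothing further.

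The plants were Col-1, grown for 5 weeks under 10 h of light and 14 h of night, and RNA was taken from roots only. A low supply of 0.5 µM Mg and a high supply of 10 mM Mg were each sampled on both days, and a control, whose Mg supply the labels do not state, on day 4 alone. The 5 groups hold 1 library each, so no value has a replicate error and no difference could be tested.

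The circadian clock is a feedback loop of transcription factors that gives cells an internal day. Morning genes such as CCA1 and LHY are expressed around dawn and repress evening genes such as TOC1, GI, LUX and ELF4. The product of TOC1 in turn holds CCA1 and LHY down later in the day. The clock runs in roots as well as in leaves, and the root clock is set by light and by signals from the shoot. Many light-signalling genes, among them B-box zinc finger and cycling Dof factors, are outputs of this loop and peak at one time of day.

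The 69 members fell into 45 coding genes with 500 nt or more of exon, 4 shorter coding genes, 12 small nucleolar RNA (snoRNA) genes, 4 long non-coding RNA (lncRNA) genes, 3 miRNA genes and 1 pseudogene. They lay on all chromosomes, with 20 on chromosome 1, 12 on chromosome 2, 15 on chromosome 3, 10 on chromosome 4 and 12 on chromosome 5. Of the longer coding members, 9 belong to the clock, all to the morning arm of the loop or its partners. Another 12 act in light signalling or photoperiod, 4 encode chloroplast proteins, 6 are other regulators, 6 act in metabolism or transport, and 8 are other or uncharacterized genes. These role groups were drawn up after the values were seen.

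The promoters of 5 clock members are shown because each holds the G-box, the hexamer CACGTG that basic helix-loop-helix and basic leucine-zipper factors bind, within 250 bases before the annotated start. They are the members with the largest day ratios whose G-box lies before that start. Each line gives the 250 bases before the start, read 5′ to 3′ on the gene's strand from the RefSeq genome TAIR10.1, with the G-boxes in capitals.
CCA1 (chr2:19245341-19245590, plus strand): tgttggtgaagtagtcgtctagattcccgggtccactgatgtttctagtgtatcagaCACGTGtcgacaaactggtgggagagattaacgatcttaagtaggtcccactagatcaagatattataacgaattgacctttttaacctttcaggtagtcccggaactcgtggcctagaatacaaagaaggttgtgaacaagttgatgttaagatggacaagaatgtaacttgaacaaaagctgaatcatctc
LHY (chr1:37872-38121, minus strand): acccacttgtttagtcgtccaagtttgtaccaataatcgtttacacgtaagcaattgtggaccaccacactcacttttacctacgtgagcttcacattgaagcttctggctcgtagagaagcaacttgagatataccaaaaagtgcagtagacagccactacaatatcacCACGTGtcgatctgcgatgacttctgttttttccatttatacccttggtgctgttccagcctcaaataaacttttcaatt
LNK3 (chr3:3923265-3923514, plus strand): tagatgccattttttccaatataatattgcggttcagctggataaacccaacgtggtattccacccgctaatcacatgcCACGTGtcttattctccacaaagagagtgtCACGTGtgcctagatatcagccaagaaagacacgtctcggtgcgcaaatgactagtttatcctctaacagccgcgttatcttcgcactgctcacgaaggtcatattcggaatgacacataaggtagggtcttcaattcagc
RVE1 (chr5:5692993-5693242, minus strand): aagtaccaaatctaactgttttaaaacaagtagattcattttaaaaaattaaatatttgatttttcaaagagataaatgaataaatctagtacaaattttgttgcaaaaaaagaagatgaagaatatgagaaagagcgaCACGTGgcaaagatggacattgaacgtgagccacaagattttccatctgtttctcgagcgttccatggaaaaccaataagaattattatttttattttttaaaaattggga
PRR9 (chr2:19232357-19232606, plus strand): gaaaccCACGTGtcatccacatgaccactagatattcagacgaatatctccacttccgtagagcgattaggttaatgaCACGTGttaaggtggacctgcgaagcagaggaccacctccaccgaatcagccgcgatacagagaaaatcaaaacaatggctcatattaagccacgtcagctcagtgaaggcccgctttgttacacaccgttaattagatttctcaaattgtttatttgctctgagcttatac

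Of the 5 promoters, those of LNK3 and PRR9 hold the G-box at 2 places. Counted from the start, the first base of the motif lay at −193 in CCA1, −80 in LHY, −111 in RVE1, −171 and −141 in LNK3, and −244 and −172 in PRR9. All 5 windows also hold ACGTGTC, the core of the abscisic acid response element (ABRE), which shares bases with the G-box wherever CACGTG is followed by TC.

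CCA1 and LHY, the paired Myb-like repressors at the centre of the morning loop, had the highest day ratios among the longer coding members. CCA1 was listed at 0 in the control and read 0.201 FPKM in low Mg and 0.172 FPKM in high Mg at 4 d, against 228 FPKM in low Mg and 256 FPKM in high Mg on day 7. With library size as estimated here, these levels stand for about 7.06 and 5.51 fragments at 4 d and about 4196 and 7818 fragments at 7 d. The 4-d libraries therefore hold almost no CCA1 reads, and both 7-d libraries hold many. LHY read 0.0345 FPKM in the control, 0.0794 FPKM in low Mg and 0.215 FPKM in high Mg at 4 d, and 180 FPKM and 190 FPKM in low and high Mg at 7 d. Both genes were near the detection limit in all 3 libraries taken at 4 d, and in neither did the days overlap, as the rule required. The log2 day ratio of CCA1 was 7.57 in low Mg and 7.78 in high Mg, and that of LHY was 7.39 and 7.30.

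The REVEILLE genes encode relatives of CCA1 and LHY. RVE8, an activator of evening genes, read 0.629 FPKM in the control, 1.32 FPKM in low Mg and 0.372 FPKM in high Mg at 4 d, and 60.4 FPKM and 74.5 FPKM at 7 d. RVE1, which links the clock to auxin synthesis, read 1.59, 0.869 and 1.15 FPKM in the control, low Mg and high Mg at 4 d, and 62.6 and 52.0 FPKM in low and high Mg at 7 d. RVE4, annotated as LCL1, differed from them in its level at 4 d, which was already 21.3 FPKM in the control, 23.9 FPKM in low Mg and 25.3 FPKM in high Mg, before 106 and 121 FPKM at 7 d. It thus has the smallest day ratios of the clock members, 2.105 in low Mg and 2.21 in high Mg. Of the 5 REVEILLE genes, CCA1 and LHY, 7 genes in all, 6 were 4-fold higher at 7 d at both Mg levels and 5 are members. Over all genes with 5 FPKM or more in any of the 4 libraries compared, 0.624% were that much higher, but the rule used the same contrast and nothing is read from the difference.

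The other clock members were 3 of the 4 LNK genes and PRR9. LNK proteins bind REVEILLE factors and act with them as coactivators. LNK2 read 2.82 FPKM in the control, 2.19 FPKM in low Mg and 2.39 FPKM in high Mg at 4 d, and 240 and 265 FPKM in low and high Mg at 7 d. LNK3 read 3.53, 3.13 and 1.86 FPKM in the control, low Mg and high Mg at 4 d, and 146 and 150 FPKM at 7 d. For LNK4 the values were 3.20, 3.45 and 2.204 FPKM at 4 d in the same order, and 86.0 and 77.0 FPKM at 7 d. All 3 were thus at a few FPKM at 4 d and far higher at 7 d, and differed far less between Mg levels, as the rule required. LNK1, which was not chosen, read 16.7 FPKM in the control, 7.58 and 7.80 FPKM in low and high Mg at 4 d, and 19.8 and 30.02 FPKM at 7 d, so its control level lay close to its level in low Mg at 7 d.

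PRR9, the earliest of the pseudo-response regulators to be expressed in the day, represses CCA1 and LHY. It read 1.46 FPKM in the control, 1.30 FPKM in low Mg and 1.08 FPKM in high Mg at 4 d, against 50.2 and 53.8 FPKM in low and high Mg at 7 d. PRR9 and CCA1 are neighbours among the members, 10412 bases apart on chromosome 2. Across the 9 clock members, no 4-d value exceeded 25.3 FPKM and the 7-d values ran from 50.2 to 265 FPKM. Their median log2 day ratio was 5.09 in low Mg and 5.72 in high Mg.

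**Figure D1:**
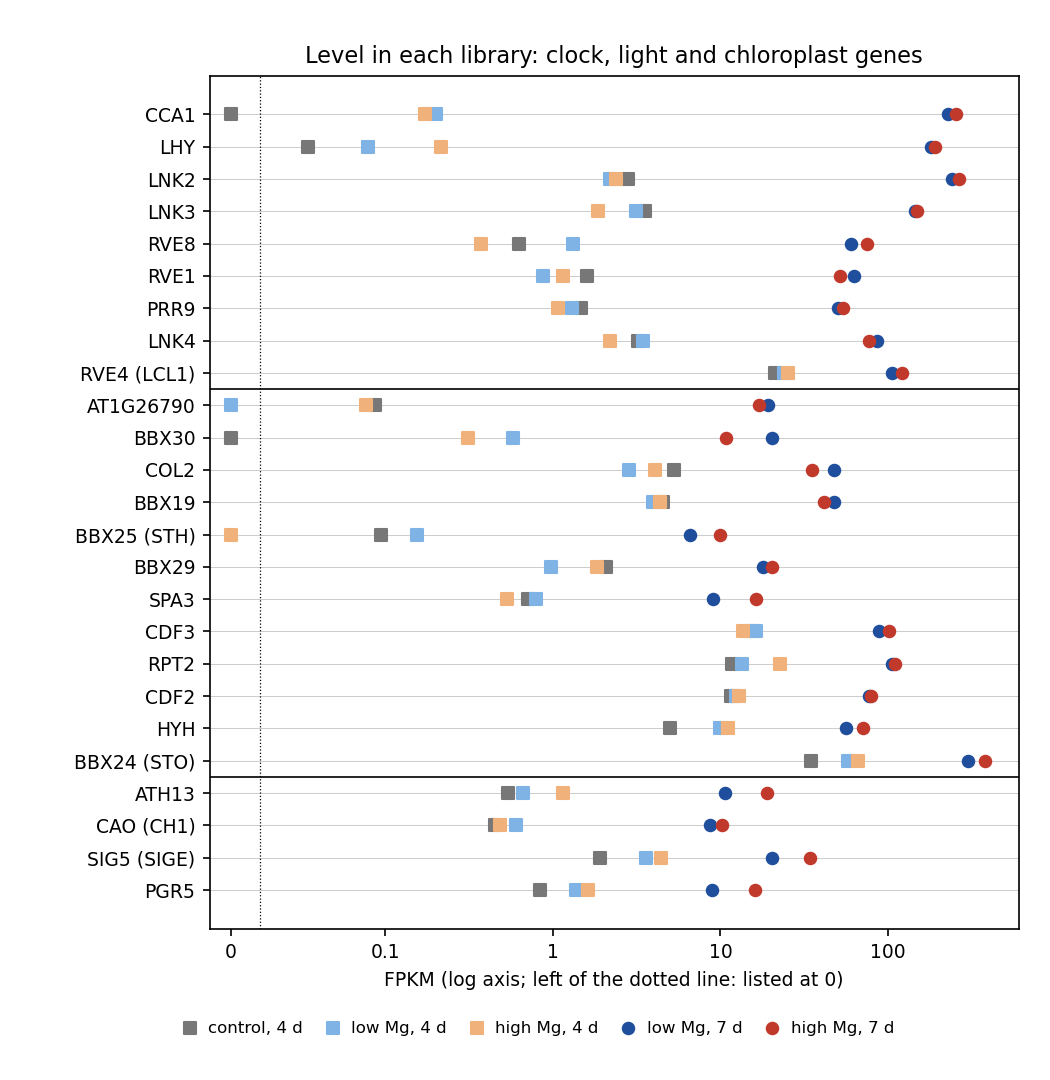
Level of the clock members (top), light and photoperiod members (middle) and chloroplast members (bottom) in each library, in FPKM on a log axis; squares are the 3 libraries at 4 d and circles the 2 at 7 d, and points left of the dotted line are listed at 0. The circles lie right of the squares for each gene, which the rule requires, and CCA1 and LHY span the widest gap, from 0.215 FPKM or less to between 180 and 256 FPKM.

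Several evening genes of the same loop read lower at 7 d. A list of 15 clock genes, drawn up with earlier results of these data known, had 14 measured genes, of which 5 were 4-fold higher at both Mg levels, all of them members, and 4 were 4-fold lower at both. Over all genes compared, 0.624% were 4-fold higher and 1.14% were 4-fold lower at both Mg levels. The rule used the first of these contrasts, so nothing is read from the 5 higher genes. GI, an evening gene that sets flowering time, read 50.5 FPKM in the control, 45.6 and 46.7 FPKM in low and high Mg at 4 d, and 3.55 and 4.93 FPKM at 7 d. ELF4 and LUX encode parts of the evening complex, which represses PRR9. ELF4 read 127, 191 and 232 FPKM in the control, low Mg and high Mg at 4 d, and 8.78 and 2.77 FPKM at 7 d. LUX read 104, 93.5 and 101 FPKM at 4 d in the same order, and 9.67 and 7.58 FPKM at 7 d. CCR2, an RNA-binding protein gene expressed in the evening, was 7225, 6114 and 5808 FPKM at 4 d and 1148 and 681 FPKM at 7 d.

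The 5 members of the list were thus low at 4 d and high at 7 d, and GI, ELF4, LUX and CCR2 were the reverse. PRR7, which is expressed in the day after PRR9, went with the latter, at 32.8, 24.4 and 22.3 FPKM in the control, low Mg and high Mg at 4 d and 14.8 and 17.1 FPKM at 7 d. TOC1, the evening partner of CCA1 and LHY, lay below the 4-fold limit, at 58.5, 58.8 and 57.7 FPKM in the control, low Mg and high Mg at 4 d and 18.2 and 19.1 FPKM at 7 d. PRR5, which follows PRR9 in the day, read 16.1, 18.2 and 16.5 FPKM at 4 d and 2.26 and 3.51 FPKM at 7 d. ELF3, the other subunit of the evening complex, read 24.7, 24.4 and 26.6 FPKM at 4 d and 32.4 and 32.8 FPKM at 7 d. Under rescaling to an equal nuclear sum, described at the end, the low Mg ratio of TOC1 turned from −1.64 to 0.47 and both ratios of PRR7 became positive, 1.32 and 1.00, while all genes had medians of 1.79 and 1.21. GI, ELF4, LUX, CCR2 and PRR5 kept their direction. The hour of harvest is not given in the sources used here, so the day of sampling and any hour of harvest that differed between the days cannot be told apart.

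**Figure D2:**
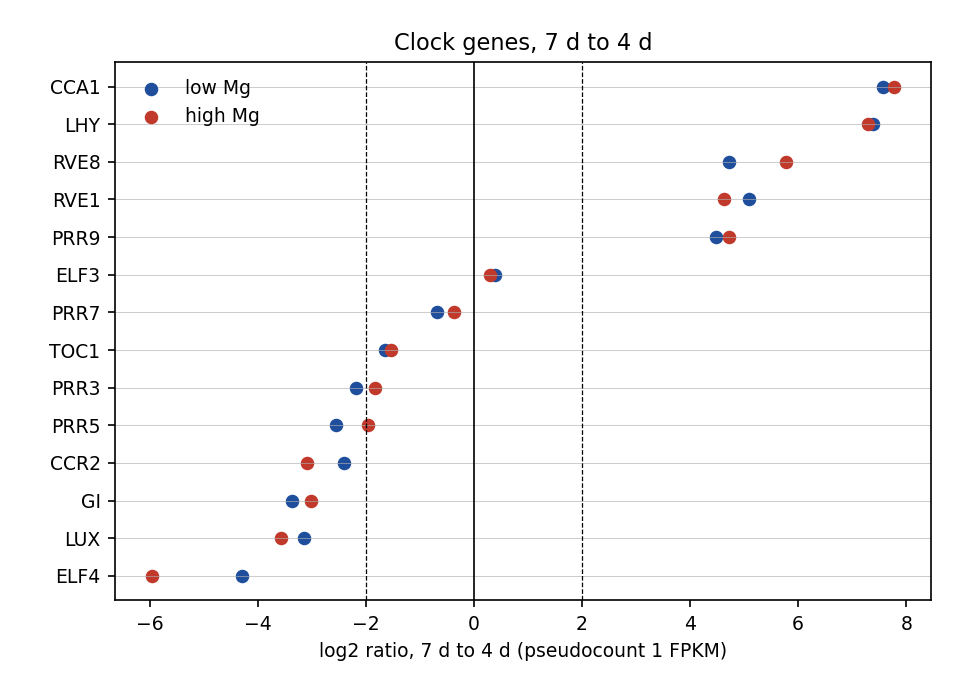
Log2 day ratio (7 d to 4 d, pseudocount 1 FPKM) of the 14 measured genes of the clock list, in low Mg (blue) and high Mg (red); dashed lines mark 4-fold. Morning genes CCA1, LHY, RVE8, RVE1 and PRR9 lie between 4.47 and 7.78, ELF3 lies near 0, and GI, LUX, ELF4 and CCR2 lie below the lower line in both Mg levels.

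Light-signalling and photoperiod genes formed the largest group of longer coding members. Of the 17 B-box genes measured, 7 were 4-fold higher at 7 d at both Mg levels, 6 of them members, and 1 was 4-fold lower at both, beside 0.624% and 1.14% of all genes compared. B-box proteins are zinc finger regulators that act with the light-signalling factors HY5 and COP1. BBX24, annotated as STO, had the highest level of all longer coding members, at 34.9 FPKM in the control, 57.6 and 65.9 FPKM in low and high Mg at 4 d, and 301 and 380 FPKM at 7 d. Its relative BBX25 (STH) read 0.0938 FPKM in the control and 0.155 FPKM in low Mg at 4 d, was listed at 0 in high Mg at 4 d, and read 6.54 and 9.99 FPKM at 7 d. BBX19, a repressor of flowering, read 4.57, 3.93 and 4.34 FPKM at 4 d and 47.2 and 41.3 FPKM at 7 d.

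BBX29 and BBX30 are smaller members with a single B-box. BBX29 read 2.07 FPKM in the control, 0.978 and 1.83 FPKM in low and high Mg at 4 d, and 17.8 and 20.4 FPKM at 7 d. BBX30 was listed at 0 in the control and read 0.579 and 0.311 FPKM in low and high Mg at 4 d. At 7 d it read 20.3 FPKM in low Mg and 10.7 FPKM in high Mg, a log2 ratio between Mg levels of 0.86, the largest toward low Mg of the 45. COL2, a relative of the flowering regulator CONSTANS, read 5.32, 2.83 and 4.04 FPKM at 4 d and 47.7 and 35.3 FPKM at 7 d. The B-box family did not move as a whole. BBX21, BBX22 and CONSTANS are not among the members, and BBX13 read 27.7, 31.0 and 29.4 FPKM at 4 d against 6.32 and 6.58 FPKM at 7 d.

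Cycling Dof factors repress CONSTANS and are themselves expressed in the morning. CDF2 read 11.6, 12.4 and 12.9 FPKM in the control, low Mg and high Mg at 4 d, and 77.0 and 79.2 FPKM in low and high Mg at 7 d. CDF3 read 15.4, 16.3 and 13.7 FPKM at 4 d in the same order, and 87.7 and 102 FPKM at 7 d. In both genes the 3 values at 4 d lay close together, as did the pair at 7 d, and the rule required both. CDF1, the remaining gene annotated by that name, missed the limit in low Mg, with 11.1, 9.09 and 6.27 FPKM at 4 d and 31.6 and 36.2 FPKM at 7 d. A further Dof gene, AT1G26790, was listed at 0 in low Mg at 4 d, read 0.0867 FPKM in the control and 0.0768 FPKM in high Mg at 4 d, and read 19.2 and 16.9 FPKM at 7 d.

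Of the remaining light genes, HYH encodes the bZIP relative of HY5, the factor that promotes growth in light. It read 5.02 FPKM in the control, 9.88 and 11.02 FPKM in low and high Mg at 4 d, and 56.0 and 71.3 FPKM at 7 d. HY5 itself differed less, at 46.8, 62.6 and 67.0 FPKM at 4 d and 91.2 and 106 FPKM at 7 d. SPA3, a partner of the COP1 ubiquitin ligase that degrades HY5, read 0.708, 0.794 and 0.534 FPKM at 4 d and 8.97 and 16.2 FPKM at 7 d. COP1 was at 15.6, 17.8 and 17.39 FPKM at 4 d and 15.5 and 19.3 FPKM at 7 d, so the ranges of the days overlapped. RPT2, which acts with the phototropin blue-light receptors, read 11.8, 13.5 and 22.5 FPKM at 4 d and 105 and 110 FPKM at 7 d. In a list of 12 light-signalling genes, 7 were measured, 3 were 4-fold higher at both Mg levels (HYH, BBX30 and SIG5) and 0 were 4-fold lower, beside the same 0.624% and 1.14%.

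Genes for 4 chloroplast proteins were members, although the tissue was root. CAO, annotated as CH1, makes chlorophyll b, and read 0.454 FPKM in the control, 0.604 and 0.484 FPKM in low and high Mg at 4 d, and 8.66 and 10.2 FPKM at 7 d. PGR5, needed for cyclic electron flow around photosystem I, read 0.840, 1.38 and 1.62 FPKM at 4 d and 8.91 and 16.0 FPKM at 7 d. SIG5, annotated as SIGE, is a sigma factor of the plastid RNA polymerase, and read 1.91, 3.61 and 4.42 FPKM at 4 d and 20.2 and 34.4 FPKM at 7 d. ATH13, an ABC1-like chloroplast protein, read 0.542, 0.660 and 1.15 FPKM at 4 d and 10.7 and 19.0 FPKM at 7 d. All 4 were low at 4 d and higher at 7 d, and at 7 d each was higher in high Mg than in low Mg.

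The summed level of 13 photosynthetic shoot markers was 14.0 FPKM in the control, 16.5 and 20.6 FPKM in low and high Mg at 4 d, and 12.3 and 32.9 FPKM in low and high Mg at 7 d. It was lowest in low Mg at 7 d, where the rule required the chloroplast members to be higher than at 4 d. It was highest in high Mg at 7 d, where PSBO1 of photosystem II read 17.7 FPKM against 2.98 to 5.43 FPKM elsewhere, and its part in the higher chloroplast members there was not tested. RBCS1B, a small subunit gene of Rubisco, was listed at 0 in all 5 libraries, and RBCS1A stayed between 0.428 and 2.21 FPKM. RBCS2B and RBCS3B were listed at 0 at 4 d. At 7 d RBCS2B read 0.382 and 1.28 FPKM and RBCS3B 0.496 and 0.404 FPKM in low and high Mg. LHCA1 went the other way, at 5.74, 4.67 and 4.73 FPKM at 4 d and 1.67 and 1.86 FPKM at 7 d. The shoot markers thus did not move as a whole. Root markers were present in each library, among them CASP1 of the endodermis at 307, 370 and 343 FPKM at 4 d and 226 and 175 FPKM at 7 d. They did not keep the same level. The sum of 4 epidermis and hair markers was 213, 178 and 321 FPKM at 4 d and 222 and 79.0 FPKM at 7 d. That of 3 xylem markers was 43.6, 49.7 and 43.6 FPKM at 4 d and 65.2 and 48.4 FPKM at 7 d. Any part of such shifts in the member levels was not tested. Both pollen and all 3 seed markers were listed at 0 throughout. In tissue RNA of this kind, a higher level from more cells of a type and one from more RNA per cell cannot be told apart.

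The other regulators spanned a wide range of levels. bZIP58, a basic leucine-zipper factor, read 29.4 FPKM in the control, 17.7 and 19.7 FPKM in low and high Mg at 4 d, and 169 and 146 FPKM at 7 d. AT3G16800, a protein phosphatase 2C, read 21.6, 26.7 and 25.1 FPKM at 4 d and 229 and 186 FPKM at 7 d. AT3G13040, a Myb-like factor, read 12.6, 14.2 and 13.6 FPKM at 4 d and 92.7 and 97.8 FPKM at 7 d. These 3 were well expressed on both days, and the rule required that the days not overlap. CBF3 (DREB1A), an activator of cold-response genes that the clock also gates, read 0.128, 0.317 and 0.339 FPKM at 4 d and 10.9 and 7.40 FPKM at 7 d. Of 7 measured genes of a cold-response list, it alone was 4-fold higher at both Mg levels, beside 0.624% of all genes compared. Its neighbours CBF1 and CBF2 stayed under 5 FPKM in each library. HOS10, an R2R3-Myb gene, read 0.940, 1.53 and 1.03 FPKM at 4 d and 11.5 and 14.1 FPKM at 7 d. It overlaps the Myb-like gene AT1G35516 on the same strand, which read 53.2, 38.1 and 41.0 FPKM at 4 d and 57.2 and 67.4 FPKM at 7 d, so reads of the overlap may be split between them.

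Among genes of metabolism and transport, AT5G15950 had the widest gap. It encodes an S-adenosylmethionine decarboxylase, an enzyme of polyamine synthesis, and read 4.72 FPKM in the control, 5.10 and 3.69 FPKM in low and high Mg at 4 d, and 211 and 239 FPKM at 7 d. Its log2 day ratio of 5.12 in low Mg and 5.67 in high Mg lay in the range of the clock members. BAM9, annotated as BMY3, belongs to the beta-amylases, the family that breaks down starch, and read 7.16, 9.83 and 11.1 FPKM at 4 d and 81.2 and 63.4 FPKM at 7 d. SWEET2, a sugar transporter of the vacuole in roots, read 7.53, 4.11 and 4.59 FPKM at 4 d and 24.7 and 25.8 FPKM at 7 d. The glutaredoxin gene AT1G64500 read 0.402, 0.266 and 0.214 FPKM at 4 d and 10.11 and 10.7 FPKM at 7 d. PP2-A10, a phloem lectin-like protein gene, was listed at 0 in the control and in low Mg at 4 d, read 0.550 FPKM in high Mg at 4 d, and read 10.4 and 12.9 FPKM at 7 d. AT4G36850, a PQ-loop membrane protein, read 4.10, 5.12 and 2.80 FPKM at 4 d and 41.0 and 24.2 FPKM at 7 d.

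Over the 45 longer coding members, the median level was 1.91 FPKM in the control, 1.53 FPKM in low Mg and 1.83 FPKM in high Mg at 4 d, and 47.2 and 41.3 FPKM in low and high Mg at 7 d. At 4 d, 29 of them were under 5 FPKM in all 3 libraries and 13 were under 1 FPKM. Their median log2 day ratio was 3.03 in low Mg and 2.90 in high Mg, beside −0.12 in each for all genes compared. At 7 d, 29 were higher in high Mg and 16 were higher in low Mg. This split was not counted over all genes compared, and nothing is read from it. The log2 ratio of low to high Mg there had a median of −0.08, beside 0.001 for all genes compared. It ran from −0.79 (SPA3) to 0.86 (BBX30), within the bounds the rule set.

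Of the 15684 genes, 191 (1.22%) were 4-fold higher at 7 d in low Mg, 236 (1.5%) in high Mg and 104 (0.663%) in both, and the 69 members are 0.44% of all. Among coding genes of 500 nt or more, the 45 members are 0.298% of 15110. The other 35 of the 104 failed a bound on the ratios between Mg levels or to the control, most often that between the 7-d libraries, which 23 exceeded. Just inside the limit lay AT4G01595, a protein kinase gene, with a lower day ratio of 2.01, PGR5 with 2.06, and the lncRNA gene AT4G25885, which was listed at 0 at 4 d and read 6.23 and 3.17 FPKM at 7 d. Just outside lay AT5G44562 with 1.97, AT1G02640 with 1.90, and AT5G59860, which was listed at 0 at 4 d and read 6.51 and 2.84 FPKM at 7 d. AT4G01595 read 1.53, 0.976 and 1.49 FPKM at 4 d and 6.98 and 11.7 FPKM at 7 d, and AT5G44562 read 1.60, 2.12 and 0.875 FPKM at 4 d and 11.2 and 11.1 FPKM at 7 d, so genes on either side of the limit had like values.

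**Figure D3:**
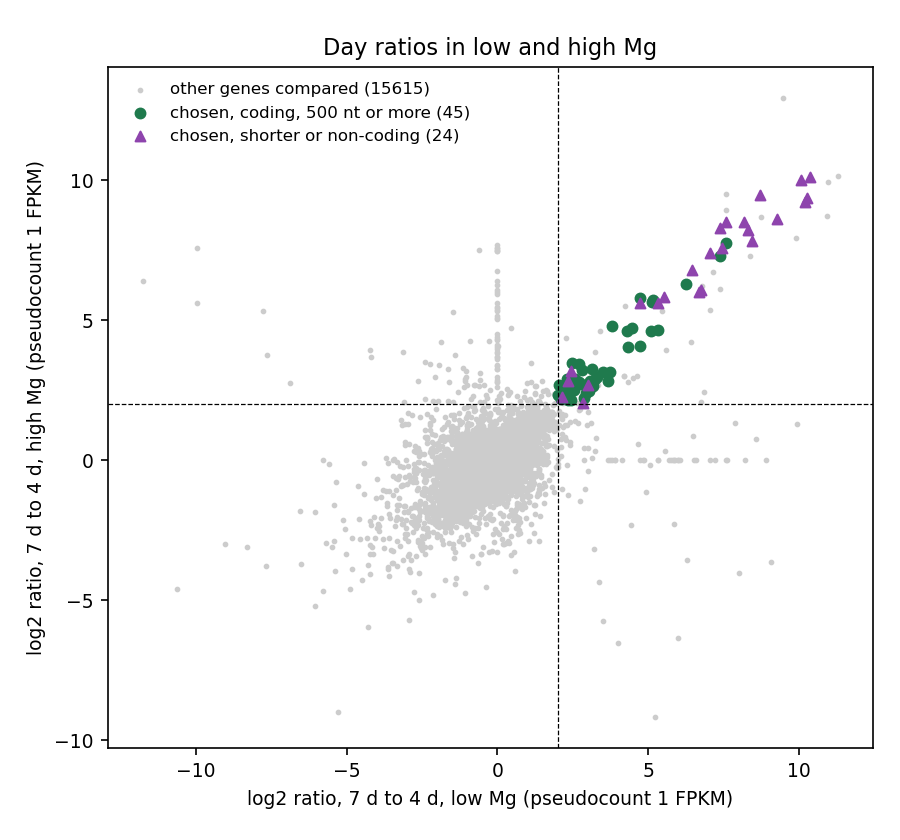
Log2 day ratio in low Mg (x axis) against that in high Mg (y axis), both with a pseudocount of 1 FPKM, for all 15684 genes compared; green circles are the 45 longer coding members, purple triangles the 24 shorter or non-coding members, grey points the rest, and dashed lines the 4-fold limits. The longer coding members reach 7.78, CCA1 in high Mg, and the members beyond that are all shorter or non-coding. The grey points beyond both limits are the 35 genes that failed another bound of the rule.

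A property that the rule did not use is what the promoters hold. The window from 250 bases before to 50 bases after the annotated start was searched on both strands for 12 motifs. The G-box, CACGTG, stood in the window of 13 of 45 longer coding members (28.9%), beside 8.56% of all 15110 coding genes compared. These were 7 of the 9 clock members, together with BBX30, CDF2, CAO, ATH13, BAM9 and ASG1 (AT2G24100). In LNK2 and RVE8 it lay after the start, at bases 24 and 11. The ABRE core ACGTGTC stood in 22.2% of members and 4.80% of all, and the sugar starvation motif TATCCA in 28.9% and 16.1%. Motifs that stood at about the same share were the W-box core TTGAC, at 48.9% and 52.2%, the copper core GTAC, at 37.8% and 38.8%, and TATAAA, at 55.6% and 52.5%. The remaining motifs were the MYC-type AACGTG, at 15.6% and 9.05%, the TGA core TGACG, at 31.1% and 23.7%, the DRE core GCCGAC, at 6.67% and 3.92%, the RY core CATGCA, at 6.67% and 7.80%, and the GCC box GCCGCC, in 0 members and 2.58% of all. TTGAC and TGACG share bases where TTGACG occurs. With a window of 1000 bases before the start, chosen after seeing the data, the G-box stood in 35.6% of members and 17.1% of all, and the evening element in 15.6% of both.

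The evening element AAATATCT, to which CCA1 and LHY bind, stood in the shorter window of 4 members (8.89%), beside 5.65% of all genes. They were PRR9, COL2, CBF3 and BBX24. The mirror of the rule, 4-fold lower at 7 d at both Mg levels with the same bounds on Mg, selected 84 of 15837 genes (0.53%), of which 62 were coding with 500 nt or more. The evening element stood in 19 of these 62 (30.6%) and the G-box in 6 (9.68%). Beside GI and LUX, the 84 include JMJD5, a histone demethylase of the clock, which read 43.0, 30.4 and 34.6 FPKM at 4 d and 1.22 and 1.92 FPKM at 7 d. COR27, an evening repressor of clock genes, read 7.88, 8.28 and 9.04 FPKM at 4 d, was listed at 0 in low Mg at 7 d and read 0.631 FPKM in high Mg at 7 d. The G-box, ABRE core and sugar starvation motif shares of the members, and the evening element share of the mirror set, thus stand above those of all coding genes compared. All members with the ABRE core except AT3G16800 also hold the G-box, so the shares of these motifs overlap. The sugar starvation motif also stood in 22.6% of the 62 mirror genes, above the 16.1% of all. No test was made, and no statement on binding is made. The mirror set was filtered on the 4-d libraries, and all coding genes compared on the 7-d libraries. GI and JMJD5 are thus in the first and not in the second, and no share was computed over genes with the 4-d filter.

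**Figure D4:**
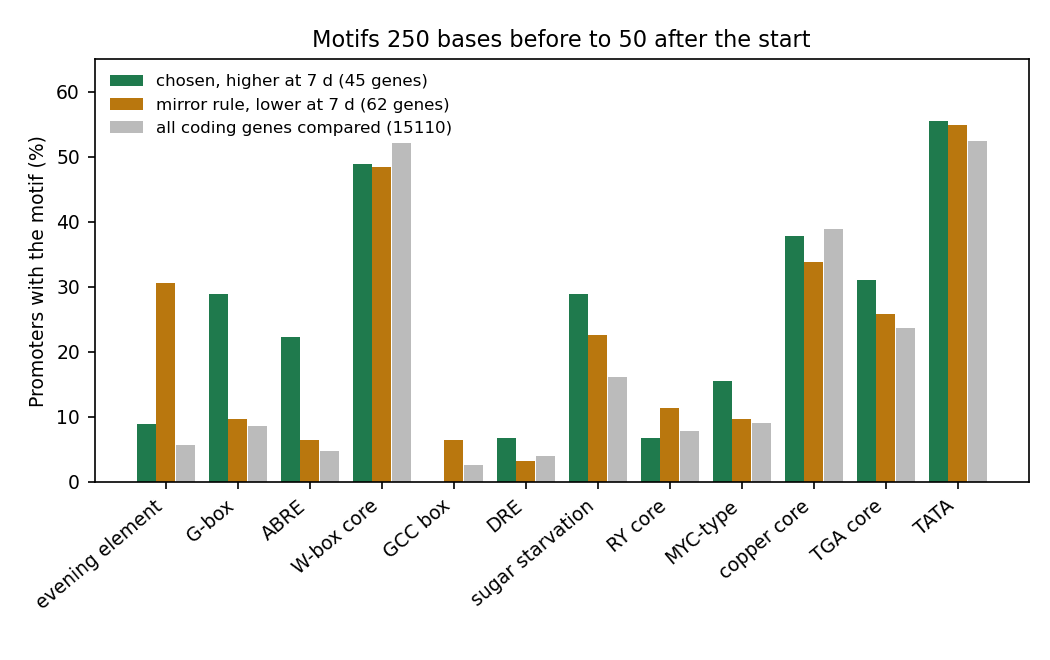
Share of promoters (y axis, percent) with each of 12 motifs in the window from 250 bases before to 50 after the start, for the 45 longer coding members (green), the 62 coding genes of the mirror rule (orange) and all 15110 coding genes compared (grey). The green bar stands apart from the grey one for the G-box, at 28.9% and 8.56%, and the orange bar for the evening element, at 30.6% and 5.65%.

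The longer coding members had a median exon length of 1849 nt, beside 1780 nt for all coding genes compared, and a median of 3 exons beside 5. Of the 45, 17 overlap another annotated gene, 15 of them one on the opposite strand. Overlaps were not counted over all coding genes compared, so nothing is read from these numbers. Whether the libraries kept strand is not given in the sources used here. SPA3 overlaps AT3G15350, which read 6.02, 4.48 and 6.17 FPKM at 4 d and 4.85 and 7.96 FPKM at 7 d. Partners with lower values at 7 d include AT2G31390, opposite BBX25, at 493, 487 and 575 FPKM at 4 d and 387 and 388 FPKM at 7 d. AT4G31355 was listed at 0 in all 4-d libraries and read 25.8 and 15.9 FPKM at 7 d, while AT4G31354 on the opposite strand read 27.4, 24.0 and 19.4 FPKM at 4 d, was listed at 0 in low Mg at 7 d and read 2.84 FPKM in high Mg at 7 d. The short coding member AT5G64395, listed at 0 at 4 d and at 166 and 312 FPKM at 7 d, lies opposite AT5G64400, which read 1206, 1100 and 993 FPKM at 4 d and 307 and 201 FPKM at 7 d.

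The lncRNA gene AT1G69572 was above 0 in each library, at 2.23 FPKM in the control, 2.598 and 2.06 FPKM in low and high Mg at 4 d, and 17.38 and 21.0 FPKM at 7 d. It lies opposite the Dof gene AT1G69570, which read 0.109, 0.226 and 0.194 FPKM at 4 d and 3.67 and 4.58 FPKM at 7 d, under the 5 FPKM filter. Both loci were thus low at 4 d and higher at 7 d. Whether the libraries kept strand is not given, so reads of the overlap cannot be assigned to 1 strand. The lncRNA gene AT1G53801 read 0.967, 0.982 and 0.843 FPKM at 4 d and 7.66 and 7.92 FPKM at 7 d. Both remaining lncRNA members were listed at 0 in all 4-d libraries, and AT2G24592 of these reached 289 and 363 FPKM at 7 d.

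Short RNA genes make up most of the other 24 members. All 12 snoRNA genes, whose products guide the chemical modification of ribosomal RNA, were listed at 0 in all 3 libraries at 4 d. At 7 d they read from 45.4 to 1319 FPKM in low Mg and from 56.1 to 1126 FPKM in high Mg. AT2G35744 was the highest in each, at 1319 and 1126 FPKM, and AT1G74456 read 1080 and 1031 FPKM. AT1G75163 and AT1G75166 lie 44 bases apart on chromosome 1, and AT2G35742 and AT2G35744 lie 2044 bases apart on chromosome 2. U60.2F lies inside FIB2, the fibrillarin gene, on the same strand. FIB2 read 195, 175 and 222 FPKM at 4 d and 217 and 144 FPKM at 7 d, whereas U60.2F was listed at 0 at 4 d and read 347 and 225 FPKM at 7 d.

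The same step appeared in counts over all short genes. Of 71 snoRNA genes in the table, 12 were above 0 in the control, 10 in low Mg and 10 in high Mg at 4 d, against 33 (low Mg) and 38 (high Mg) at 7 d. Of 178 miRNA genes, 15, 19 and 20 were above 0 at 4 d in the same order, and 36 and 40 at 7 d. For all 1358 loci under 250 nt the numbers were 91, 83 and 83 at 4 d and 139 and 161 at 7 d. Over all 33280 nuclear loci they were 22236, 22426 and 22290 at 4 d, and 21807 and 22548 at 7 d. Both 7-d libraries thus list more short genes above 0 than any 4-d library, although the low Mg library at 7 d is the smallest, with about 6.76 M fragments against 11.2 to 12.9 M in the others. The submitters' processing notes name tools for the 4-d samples only, and day and processing cannot be told apart.

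**Figure D5:**
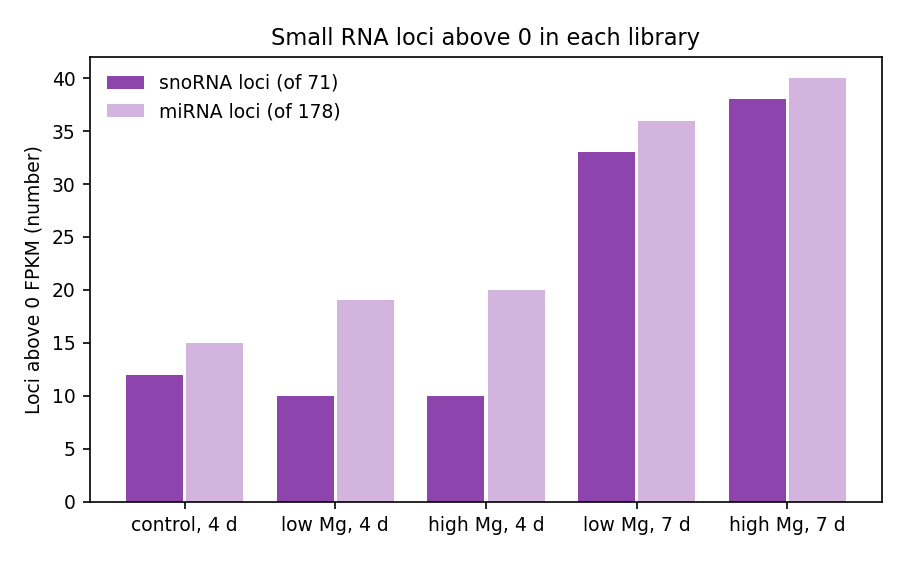
Number of snoRNA genes (of 71, dark) and miRNA genes (of 178, light) above 0 FPKM in each library. The 3 libraries at 4 d hold 10 to 12 snoRNA genes and 15 to 20 miRNA genes above 0, and the 2 libraries at 7 d hold 33 and 38 snoRNA genes and 36 and 40 miRNA genes.

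The 3 miRNA members are precursor genes, and their mature products are shown to identify them, with the seed (bases 2 to 8) in capitals. They share no seed. The sequences are those of the RefSeq annotation of TAIR10.1, written as DNA.
miR472-3p (chr1:4182143-4182164, minus strand): tTTTTCCTactccgcccatacc
miR472-5p (chr1:4182266-4182286, minus strand): aTGGTCGAagtaggcaaaatc
miR830-3p (chr1:4820406-4820426, minus strand): tAACTATTttgagaagaagtg
miR830-5p (chr1:4820473-4820494, minus strand): tCTTCTCCaaatagtttaggtt
miR160b (chr4:9888986-9889006, plus strand): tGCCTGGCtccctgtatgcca

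MIR160b, whose product targets auxin response factors that control root cap growth, was listed at 0 in all 4-d libraries and read 192 FPKM in low Mg and 367 FPKM in high Mg at 7 d. MIR830 was listed at 0 at 4 d and read 87.1 and 109 FPKM at 7 d. MIR472, whose product targets disease resistance genes, was listed at 0 at 4 d and read 7.08 and 5.44 FPKM at 7 d. It lies within AT1G12290, a disease resistance gene on the same strand, which read 5.69, 4.65 and 4.51 FPKM at 4 d and 6.13 and 7.41 FPKM at 7 d. These values belong to the precursor genes and say nothing of the mature level.

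In genes of such length, few fragments suffice for a high FPKM. Of the 25 members listed at 0 in all 4-d libraries, 22 are among the 24 shorter or non-coding members. The exceptions among the longer coding members are AT3G25011, AT4G31355 and AT5G63340. In low Mg at 7 d, 7 of the 25 had exactly the same value as another locus, as did 2 in high Mg. AT3G15251, with 114 nt of exon, and AT3G25011 both read 38.96 FPKM in low Mg at 7 d, although TAIR10.1 gives AT3G25011 558 nt. AT4G31355, with 879 nt, likewise had exactly the value of the pseudogene AT1G35143, with 126 nt, in that library. No fold is given for these 25.

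One locus touches the scale of all values. AT2G01021 held 82.4%, 75.7% and 57.7% of the summed nuclear FPKM in the control, low Mg and high Mg on day 4, and 18.5% and 15.6% at the low and high supply on day 7. When every library was rescaled to the same nuclear sum, the median day ratio of all genes became 1.79 in low Mg and 1.21 in high Mg, and the rule chose 443 genes, 58 of the 69 among them. Without that locus the same rescaling chose 93 genes, all 69 among them. RVE4, the clock member with the smallest ratios, then had 4.09 in low Mg and 3.58 in high Mg with the locus and 2.54 and 2.67 without it.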

How the data were processed

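Total RNA of roots was sequenced in 5 libraries, 1 per group as the sample titles name them. The authors deposited FPKM per TAIR10 locus. The unit is not named in the labels: it was read from the tool list and from the spacing of low values. Per the submitters' processing notes, TopHat2 2.0.8 and Cufflinks 2.1.1 were used with TAIR10 for the 4-d samples. For the 7-d samples the notes list TAIR10 only, so the aligner and counter, and whether strand was kept, are not given in those sources.

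The rule was applied to 33280 nuclear loci with a pseudocount of 1 FPKM and a filter of 5 FPKM (Python 3.11.15, pandas 2.3.3, numpy 2.4.6). No p-value was computed, as groups have no replicates. Symbols, biotypes, exon lengths, positions and sequences came from the RefSeq annotation of TAIR10.1, which holds 32817 of the loci. The deposited tables carry no coordinates. Taking the lowest mode of FPKM times kilobases over coding genes of 2000 nt or more as 1 fragment gave about 11.2, 12.9, 11.7, 6.76 and 11.2 M fragments for the control, low and high Mg at 4 d, and low and high Mg at 7 d. These estimates cover counting error only. The selection was also run on simulated data. The settings and outcome of that run are not given here, so nothing about the members is read from it.

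The members and the 23 gene lists were chosen with earlier results of these data known. Genes named in the text are the 20 longer coding members with a symbol and the largest mean ratio, the 8 with the highest 7-d level, members of a list, and the genes next to the limit. Members without a symbol, family members, overlapping genes and genes of the mirror rule were named after their values were seen. For 5 list entries the annotation gives the locus another symbol, and these were dropped. Of the 23 lists, the clock list held 5 members, light signalling 3 and cold response 1. The other 20 lists, on sugar starvation, senescence, abscisic acid, heat shock, defence, jasmonate, ethylene and low oxygen, calcium and touch, phosphate, nitrate, metals, sulfur, Mg and K transport, flavonoids, auxin and cytokinin, root hair wall, shoot photosynthesis, histones, reference genes and root wall enzymes, held 0.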

Additional observations from a re-analysis of the deposited data

How the results depend on the processing

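With 1 library per group, no replicate could be left out and no paired analysis was possible because each group is 1 library. No setting changed the sign of a day ratio of the 25 members named for symbol, level or list. The settings were a pseudocount of 0.1 or 10 FPKM, rescaling to the same nuclear sum with or without AT2G01021, and scaling to the median. A pseudocount cannot turn the sign of a ratio. The rescalings raised the median day ratio of all genes, and scaling to the median moved it only from −0.12 to 0.05 in low Mg and 0.01 in high Mg. Members chosen at 2 or more could therefore hardly turn, and nothing is read from the kept signs. Another 16 clock and light genes that are not members were tried after seeing the data. They include PRR3, which read 9.53, 7.48 and 7.32 FPKM at 4 d and 0.861 and 1.33 FPKM at 7 d. Among these genes, the equal nuclear sum turned TOC1 in low Mg to 0.47 and COP1 in low Mg from −0.19 to 1.74. It turned PRR7 to 1.32 in low Mg and 1.00 in high Mg. Leaving out AT2G01021 turned PRR7 in high Mg to 0.08 and COP1 in low Mg to 0.23. The number of genes chosen, 69, was 61 with a pseudocount of 0.1 FPKM, 52 with a filter of 20 FPKM, 69 with no filter, 74 with median scaling (68 of the 69 among them), 93 without AT2G01021 and 101 with a limit of 1.5. A pseudocount of 10 FPKM lowered it to 32, with 96 genes 4-fold higher in low Mg and 87 in high Mg and member medians of 2.13 and 1.96. A pseudocount of 0.1 FPKM gave member medians of 5.16 in low Mg and 5.38 in high Mg. These shifts follow from construction, since most members are low at 4 d. An equal nuclear sum in every library gave 443 chosen genes, 5213 in low Mg, 1233 in high Mg and medians of 4.68 and 4.10, with the median of all genes at 1.79 and 1.21. Limited to coding genes of 500 nt or more, 45 were chosen, from 92 in low Mg and 122 in high Mg, and the filter of 20 FPKM left 141 in high Mg. Chosen after seeing the data, a limit of 1.5 gave 288 genes in low Mg and 376 in high Mg, and a limit of 3 gave 35 chosen genes, 123 in low Mg and 122 in high Mg. Ratios of genes at a few fragments at 4 d, such as CCA1 and LHY, are limited by depth there.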

Other observations

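Of the 35 genes that were 4-fold higher at 7 d at both Mg levels but failed a bound on the ratios between Mg levels or to the control, 4 are described here and were named after their values were seen. RVE2, a REVEILLE gene, read 18.2 FPKM in the control, 16.0 FPKM in low Mg and 23.8 FPKM in high Mg at 4 d, and 423 FPKM in low Mg against 201 FPKM in high Mg at 7 d. BBX28, a B-box gene, read 11.9, 6.31 and 3.42 FPKM at 4 d in the same order and 68.4 and 64.0 FPKM at 7 d, so it failed on the 4-d bound alone, where the control was higher. FSD1, the iron superoxide dismutase, read 27.6, 6.71 and 10.5 FPKM at 4 d, and 827 FPKM in low Mg against 47.7 FPKM in high Mg at 7 d. FRO4, a ferric or cupric reductase of the root surface, read 2.97, 0.325 and 0.244 FPKM at 4 d, and 153 FPKM in low Mg against 5.83 FPKM in high Mg at 7 d. Both metal genes were thus far higher in low Mg than in high Mg at 7 d.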
